A study of Mus musculus with 18 samples.

Results

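The nuclear genome encodes most protein subunits of the mitochondrial respiratory chain and of ATP synthase, and 86 such genes were followed across 18 RNA-seq libraries of lipopolysaccharide-treated mouse macrophages. Members were protein-coding genes whose symbols carry the subunit prefixes of complex I (Ndufa, Ndufb, Ndufc, Ndufs and Ndufv, without the Ndufaf assembly factors), complex III (Uqcr), complex IV (Cox4i, Cox5, Cox6, Cox7 and Cox8) or complex V (Atp5), together with Sdha, Sdhb, Sdhc and Sdhd of complex II. The rule took 86 of the 55401 annotated genes. Complex I held 36 members, complex II 4, complex III 8, complex IV 20 and complex V 18. Ndufa4 and Ndufa4l2 match the complex I prefix but are counted with complex IV, where the Ndufa4 protein resides. Atp5s matches the complex V prefix and is known as a coupling factor, not a subunit. Cyc1, the cytochrome of complex III, lies outside the rule and is given separately.

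The 6 groups held 3 libraries each. In siSmim30, IC-21 cells, a mouse macrophage line, had received siRNA against Smim30 for 24 h, and siCtrl received a control siRNA. In Mut_AdSmim30, peritoneal macrophages of SMIM30-Mut mice carried an adenovirus that overexpresses SMIM30, and Mut_AdCtrl carried a control adenovirus. Each virus was added 6 h after plating and left for 24 h. Mut and WT were uninfected peritoneal macrophages of SMIM30-Mut and wild-type mice. Cells of all 6 groups received 5 ng/ml lipopolysaccharide for 6 h before harvest, so no group shows the unstimulated state, and all samples are labelled C57BL/6J. The labels name neither the mutated bases nor the age of the mice. They call the libraries triplicates without saying whether these came from separate animals or cultures, so p-values measure the spread between libraries, which may be technical. The study set Mut against WT, Mut_AdSmim30 against Mut_AdCtrl, and siSmim30 against siCtrl. Mut_AdCtrl against Mut and siCtrl against WT were added as context.

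Complex I oxidises NADH and complex II oxidises succinate, and both pass electrons through ubiquinone, complex III and cytochrome c to complex IV, which reduces oxygen. Complexes I, III and IV pump protons, and complex V uses the proton gradient to make ATP. Macrophages given lipopolysaccharide are known to shift from respiration towards glycolysis, and electron flow through complexes I and II is known to shape their oxidant and cytokine output. The remaining subunits of complexes I, III, IV and V are encoded by mitochondrial DNA. All 18 libraries had 0 counts on mitochondrial genes, so the nuclear-encoded subunits could not be set beside their mitochondrial partners.

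Libraries held 6855245 to 13456857 assigned read pairs, and 3 counts, taken as the detection floor, corresponded to 0.223 to 0.438 CPM (counts scaled to a common library total). Ribosomal RNA genes held 0.195 to 2.49% of counts, with the 3 WT libraries highest. The 100 most abundant genes took 16.2 to 16.6% of counts in IC-21 libraries and 27.7 to 29.7% in the primary ones, and trimmed mean of M-values (TMM) factors, which scale libraries for this difference in composition, were 1.36 to 1.43 in IC-21 and 0.821 to 0.863 in primary cells. Smim30, listed as 2610001J05Rik, had 6.40, 8.16 and 8.51 CPM in siSmim30 and 15.8, 14.7 and 15.4 CPM in siCtrl (log2 fold change -0.97, adjusted p = 6.17e-08). It had 60.6, 62.1 and 65.5 CPM in Mut_AdSmim30 and 54.0, 49.8 and 51.5 CPM in Mut_AdCtrl (0.28, adjusted p = 0.0052). It had 50.4, 61.2 and 61.0 CPM in Mut and 51.7, 60.1 and 60.0 CPM in WT (0.01, adjusted p = 0.966). The transcript level therefore separated the siRNA and virus pairs, while it carries no mark of the mutation. The adenovirus difference lost its call under 4 of the alternatives, among them DESeq2 (adjusted p = 0.0684). Macrophage markers (7 genes such as Adgre1, Csf1r and Lyz2) summed to 10486 to 13423 CPM in primary cells and 1846 to 2012 CPM in IC-21 cells, so the labelled cell type was present in both. Markers of mesothelial cells and fibroblasts (9 genes) summed to at most 0.432 CPM in IC-21 and to 59.2 to 298.6 CPM in primary cells. In bulk RNA, fewer cells of a type and less RNA per cell cannot be told apart.

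Most members were well expressed. Of the 86, 77 passed the filter on low counts in every pairwise comparison, and Cox6a2 passed it only where IC-21 libraries were compared. The other 8 were tested in no pairwise comparison. Cox7a1 alone among them entered the test of the mutation effect against the siRNA effect (difference in log2 fold change -0.52, adjusted p = 0.880 by edgeR). Cox7b2, Cox8b, Cox8c and a second, read-through Atp5o identifier had 0 counts in all libraries, Cox4i2 had 3 counts in all, Ndufa4l2 had 21, Cox6b2 had 23 and Cox7a1 had 116. These are mostly isoforms known from muscle, testis or hypoxic tissue. The members together took 0.503 to 0.515% of counts in IC-21 cells and 0.332 to 0.387% in primary cells.

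Per kilobase of counted exon, which spans all annotated isoforms, complex IV and V transcripts stood highest. In complex IV, Cox6b1 averaged 159 CPM per kb over the 18 libraries (88.5 to 133 CPM), ahead of Cox6a1 at 140 and Cox8a at 129 CPM per kb. Cox6c, at 11.99 CPM per kb (31.6 to 56.4 CPM), was lowest among the complex IV members tested in all 5 comparisons. In complex V, Atp5a1, the alpha subunit of the catalytic head, averaged 116 CPM per kb (301.3 to 427 CPM) and Atp5b, the beta subunit, 102 CPM per kb, whereas Atp5s averaged 2.24 (1.25 to 8.92 CPM) and Atp5l, a membrane-domain subunit, 5.32 CPM per kb. In complex II, Sdhd, a membrane anchor, led at 56.7 CPM per kb, and Sdhc, the other anchor, was lowest at 19.97. In complex III, Uqcr10 led at 39.7 CPM per kb (17.1 to 31.0 CPM) and Uqcrh was lowest at 24.1 (12.3 to 44.0 CPM). In complex I, Ndufa1, an accessory subunit of the membrane arm, led at 61.1 CPM per kb (15.6 to 33.7 CPM), and Ndufb2 was lowest at 1.45 (4.49 to 12.3 CPM). Its counted length of 5628 bases, against 419 for Ndufa1, lowers that value. Of the 86 members, 28 share a stretch of at least 100 bases at 95% identity or more with another gene. Ndufc1, Atp5g1 and Atp5l share one with at least 10 genes each, so part of their signal may lie with those copies.

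The summed TMM-scaled level of all 86 members was 3611 ± 41.8 CPM in siSmim30, 3673 ± 87.2 in siCtrl, 4539 ± 21.5 in Mut_AdSmim30, 4435 ± 75.6 in Mut_AdCtrl, 4114 ± 153 in Mut and 4009 ± 120 in WT (SD, n = 3 each). By library they were 4546, 4515 and 4557 CPM in Mut_AdSmim30, 4475, 4481 and 4347 in Mut_AdCtrl, 4009, 4045 and 4289 in Mut and 3881, 4029 and 4118 in WT. Each Mut_AdSmim30 library thus stood above each Mut_AdCtrl library, both adenovirus groups stood above both uninfected ones, and Mut overlapped with WT. On library totals alone, without a composition factor, the IC-21 sums were the highest instead of the lowest, at 5040 ± 7.81 CPM in siSmim30 and 5146 ± 1.56 in siCtrl, against 3372 ± 44.6 in WT. The siSmim30 libraries lay below all siCtrl libraries on totals (5035 to 5049 CPM against 5144 to 5147) and overlapped with them under TMM. The place of IC-21 among the groups is thus set by the scaling, while the order of the 4 primary groups was the same under both. In proportion, complex II varied most among the primary groups (1.27-fold between the highest and lowest group mean), while in CPM complexes I and V varied by 175 and 176, against 88.5 for complex II. It had TMM-scaled sums of 420 ± 5.62 CPM in Mut_AdSmim30, 405 ± 5.72 in Mut_AdCtrl, 338 ± 24.1 in Mut and 332 ± 10.3 in WT.

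**Figure D1:**
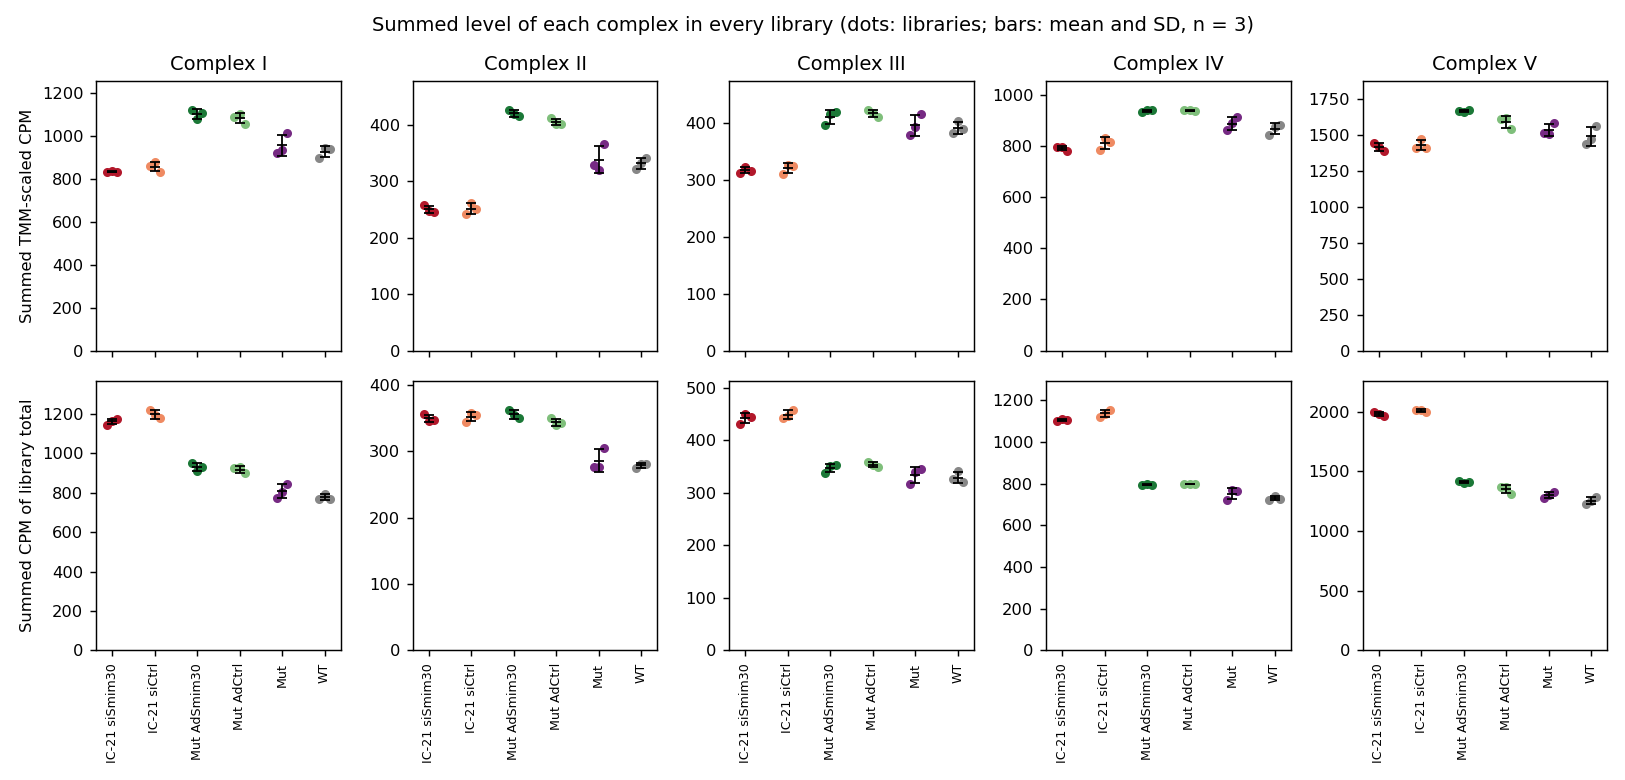
Summed CPM of the members of each complex by library (points) with the group mean (line), for the 6 groups from siSmim30 to WT. The upper row uses TMM scaling and the lower row library totals. For complexes I, III, IV and V the IC-21 groups lie below the primary groups in the upper row and above them in the lower row, for complex II they lie lowest in the upper row and level with the adenovirus groups in the lower row, and the adenovirus groups lie above Mut and WT in both for complex I and complex II.

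Among the 78 members that averaged at least 1 CPM, the ratio of the highest to the lowest of the 6 group means on the TMM scale was under 1.5 for 44, from 1.5 to 2 for 23 and at least 2 for 11. Its median was 1.46. Ndufa3 (1.08), Atp5e (1.09) and Ndufa11 (1.13) had the smallest ratios. Cox6a2 (56.9), Ndufa4 (4.56), Atp5s (3.27), Cox7a2l (3.11) and Uqcrh (3.03) had the largest. An IC-21 group was lowest for 51 of the 78 and highest for 17 on the TMM scale, against lowest for 12 and highest for 58 on library totals.

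**Figure D2:**
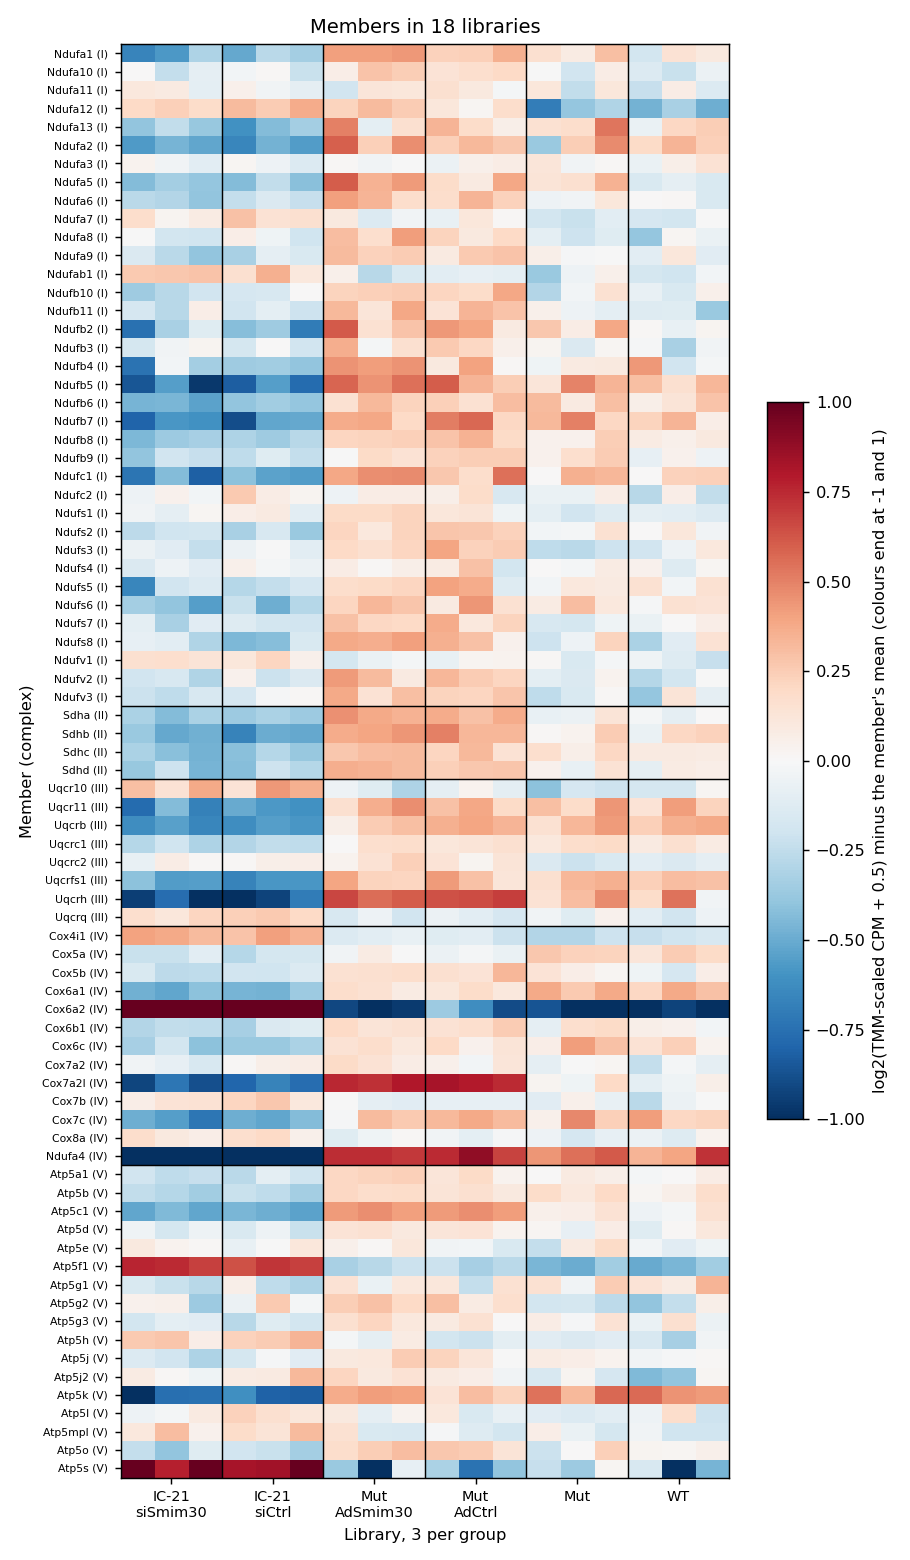
Log2 of TMM-scaled CPM plus 0.5, minus the member's mean over 18 libraries, for the 78 members that averaged at least 1 CPM, grouped by complex (rows) with libraries in columns from siSmim30 to WT. Colours run from -1 to 1. The strongest contrasts separate IC-21 from primary libraries, and libraries of Mut resemble those of WT.

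In Mut against WT, the members were close to level in all 5 complexes, and no member passed the test. Of 12500 genes tested, 788 were called at an adjusted p under 0.05, which is 6.30% (3.68% higher and 2.62% lower), and 0 of the 77 tested members were among them by edgeR or limma-voom, and 0 of the 76 that DESeq2 gave an adjusted p. Without adjustment, 1 member passed at a p under 0.05, against 18% of all genes. The median log2 fold change of the members was 0.049, with 55 positive and 22 negative, and that of all genes was -0.0057. Values ran from -0.21 for Ndufs3, a core subunit of the peripheral arm of complex I, to 0.45 for Atp5s. The 95% interval lay within 1.5-fold in either direction for 74 of the 77, the exceptions being Ndufa5, Ndufb2 and Atp5s. Complex medians were 0.063 for I, 0.029 for II, 0.030 for III, 0.054 for IV and 0.039 for V.

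The member that passed without adjustment, singled out after its values were seen, was Ndufa5, an accessory subunit of the peripheral arm of complex I. It had 7.64, 7.83 and 8.99 CPM in Mut and 6.20, 6.51 and 6.20 CPM in WT, so the groups did not overlap, and the log2 fold change was 0.38 ± 0.18 (SE; adjusted p = 0.268). The 2 groups did not overlap for 5 members that were higher in Mut (Ndufa5, Ndufb9, Ndufb2, Ndufb11 and Atp5j) and 2 that were lower (Ndufs3 and Uqcrc2), against 21.1% of all genes without overlap (11% higher and 10.2% lower). Ndufs3 had 15.3, 15.1 and 15.8 CPM in Mut and 15.99, 17.7 and 19.8 CPM in WT. The catalytic core list holds 15 members with redox centres or catalytic sites and their close partners. Its complex IV members, Cox4i1, Cox5a and Cox5b, are partners only. The list had a median of 0.031 and 0 calls by any of the 3 tools, with 0 at an unadjusted p under 0.05 by edgeR.

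Lists around the members gave few calls in Mut against WT. Of 16 enzymes of the tricarboxylic acid cycle and pyruvate dehydrogenase, 1 fell. It was Ogdh, a subunit of the 2-oxoglutarate dehydrogenase complex, which feeds NADH to complex I, with 362, 360 and 405 CPM in Mut and 408, 417 and 447 CPM in WT (log2 fold change -0.18, adjusted p = 0.0238). Complex I assembly factors (15 tested), assembly factors of complexes II to V (32), biogenesis regulators (13) and mitochondrial ribosomal proteins (77) had 0 calls each by edgeR, DESeq2 and limma-voom. At an unadjusted p under 0.05 edgeR passed 3 complex I assembly factors, 0 of the other assembly factors, 3 regulators and 4 mitochondrial ribosomal proteins. Of 76 cytosolic ribosomal protein genes, which are also short and abundant, 8 rose by edgeR, 3 by DESeq2 and 6 by limma-voom. The edgeR calls include Rpl36a (0.40), Rpl39 (0.29), Rps20 (0.25) and Rpl32 (0.24), and the median of the 76 was 0.10. The median over all tested genes with counted exons under 1 kb was 0.061, beside the members' 0.049. Ribosomal RNA held 0.399 to 1.03% of counts in Mut and 1.74 to 2.49% in WT, and 2 of 4 tested dendritic cell markers, Batf3 and Ccl22, were higher in Mut. The B cell marker Cd22 was lower (-0.51, adjusted p = 9.75e-06), with sums over the 7 B cell markers of 73.1 to 77.1 CPM in Mut and 102 to 110 CPM in WT. Of 7 macrophage markers, Fcgr1 was higher and Lyz2 lower, with sums of 10486 to 11383 CPM in Mut and 12092 to 13423 CPM in WT. Among 6 tested proliferation markers Mki67 was higher. The part of these in the members' values was not tested.

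Mutant cells given the SMIM30 adenovirus held the members at nearly the same level as with the control virus, with 0 of 77 called. The counted Smim30 transcript itself rose little in this pair (log2 fold change 0.24 to 0.31 when a library was left out). Whether these counts hold all transcript made from the virus was not tested. The members' response to a larger counted rise was not examined. In Mut_AdSmim30 against Mut_AdCtrl, 181 of 12701 genes were called, which is 1.43% (0.583% higher and 0.842% lower). DESeq2 and limma-voom also called 0 members. At an unadjusted p under 0.05, 4 members passed by edgeR, 2 by DESeq2 and 4 by limma-voom, against 10.5% of all genes by edgeR. The members' median log2 fold change was 0.026 and that of all genes 0.00023, and 76 of 77 intervals lay within 1.5-fold, the exception being Atp5s.

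Complex V held the member nearest to a call. Atp5a1 had 418, 424 and 427 CPM in Mut_AdSmim30 and 395, 414 and 372 CPM in Mut_AdCtrl, with no overlap, and a log2 fold change of 0.10 ± 0.03 (SE; adjusted p = 0.0896). It passed under a length offset (adjusted p = 0.0394) and when Mut_AdCtrl replicate 2 was left out (0.14, adjusted p = 0.0226). Atp5h, a subunit of the peripheral stalk, had 64.0, 61.0 and 68.9 CPM in Mut_AdSmim30 and 57.1, 56.1 and 60.8 CPM in Mut_AdCtrl (0.16, adjusted p = 0.267). Ndufs1, the large iron-sulphur subunit of complex I, had 76.5, 76.7 and 78.3 CPM in Mut_AdSmim30 and 72.5, 73.2 and 65.0 CPM in Mut_AdCtrl (0.13, adjusted p = 0.336). The fourth was Ndufb4, with 13.5, 13.1 and 13.4 CPM in Mut_AdSmim30 and 10.4, 13.02 and 9.81 CPM in Mut_AdCtrl (0.27, adjusted p = 0.467). These 4 were named after their values were seen.

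The groups did not overlap for 12 members that were higher in Mut_AdSmim30 and 4 that were lower, against 15% of all genes (7.56% higher and 7.40% lower). Of the 12, 6 were among the 17 tested complex V members (Atp5a1, Atp5h, Atp5b, Atp5e, Atp5k and Atp5j2), and 15 of the 17 had a positive log2 fold change, with a median of 0.046. Complex V was singled out after its values were seen, and the members outside it split into 30 positive and 30 negative. All 4 complex II members were positive too (0.076 for Sdhd, 0.070 for Sdhc, 0.045 for Sdha and 0.0086 for Sdhb). Complex III held 2 positive and 6 negative, and complex IV 5 and 7. No member passed the test by edgeR in the fit as reported. In the same libraries all 6 tested mesothelial and fibroblast markers were lower (median -1.13), with sums over the 9 listed genes of 59.2 to 67.9 CPM in Mut_AdSmim30 and 107 to 132 CPM in Mut_AdCtrl, 2 of 7 macrophage markers were higher, and their part in the members' values was not tested. Tricarboxylic acid cycle enzymes (16 tested), both assembly factor lists, biogenesis regulators and mitochondrial and cytosolic ribosomal proteins had 0 calls each by edgeR, DESeq2 and limma-voom. At an unadjusted p under 0.05 edgeR passed 3 cycle enzymes, 1 complex I assembly factor, 3 of the other assembly factors, 0 regulators, 3 mitochondrial and 9 cytosolic ribosomal proteins.

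In IC-21 cells the siRNA against Smim30 also moved no member past the threshold. In siSmim30 against siCtrl, 472 of 13576 genes were called, which is 3.48% (2.39% higher and 1.09% lower), and 0 of 78 tested members were called by edgeR or limma-voom. DESeq2 gave an adjusted p to 62 of them and called 0 of those. At an unadjusted p under 0.05, 3 members passed by edgeR, 0 by DESeq2 and 4 by limma-voom, against 14.2% of all genes by edgeR. The median was -0.035 for the members, with 28 positive and 50 negative, and -0.0023 for all genes. All 78 intervals lay within 1.5-fold. The 3 members, named after their values were seen, were all lower in siSmim30. Atp5l had 32.9, 33.7 and 36.4 CPM in siSmim30 and 40.1, 38.3 and 37.1 CPM in siCtrl (log2 fold change -0.15 ± 0.07 SE, adjusted p = 0.306). Cox6a2, the muscle-type isoform of complex IV subunit 6a, had 7.17, 9.39 and 9.36 CPM in siSmim30 and 9.92, 11.7 and 9.90 CPM in siCtrl (-0.28 ± 0.13, adjusted p = 0.314). Cox7a2 had 43.6, 42.3 and 40.0 CPM in siSmim30 and 45.1, 46.6 and 47.1 CPM in siCtrl (-0.13 ± 0.06, adjusted p = 0.334). In each of the 3 the groups did not overlap. Without overlap, 7 members were lower and 1, Uqcrfs1, was higher, against 17.6% of all genes (9.93% lower and 7.62% higher). Around the members, 1 of 77 mitochondrial ribosomal proteins was higher in siSmim30, Mrpl17 (0.32), and 1 of 76 cytosolic ribosomal proteins was higher and 1 lower by edgeR. DESeq2 called 0 in both lists, and limma-voom called 1 mitochondrial and 0 cytosolic ones. Complex I assembly factors (15 tested), the other assembly factors (33), cycle enzymes (15) and biogenesis regulators (13) had 0 calls each by edgeR, DESeq2 and limma-voom. At an unadjusted p under 0.05 edgeR passed 2, 4, 1 and 1 of them. DESeq2 left many of these genes without an adjusted p here. Of the marker lists, 1 of 7 macrophage markers was lower and 2 of 7 proliferation markers were higher in siSmim30, and their part in the members' values was not tested.

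The difference between the mutation effect and the siRNA effect was tested directly, since a call in neither does not show that they are alike. Of 14804 genes, 372 had a difference at an adjusted p under 0.05, which is 2.51% (1.25% higher and 1.26% lower), and 0 of 79 tested members did by edgeR. Without adjustment 2 members passed at a p under 0.05, Cox7a2 (difference in log2 fold change 0.23, adjusted p = 0.304) and Ndufa1 (0.31, adjusted p = 0.353), against 13.3% of all genes. The members' median difference was 0.078 and that of all genes 0.00019, and a shift common to the members was not tested. No other tool was run for this test.

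**Figure D3:**
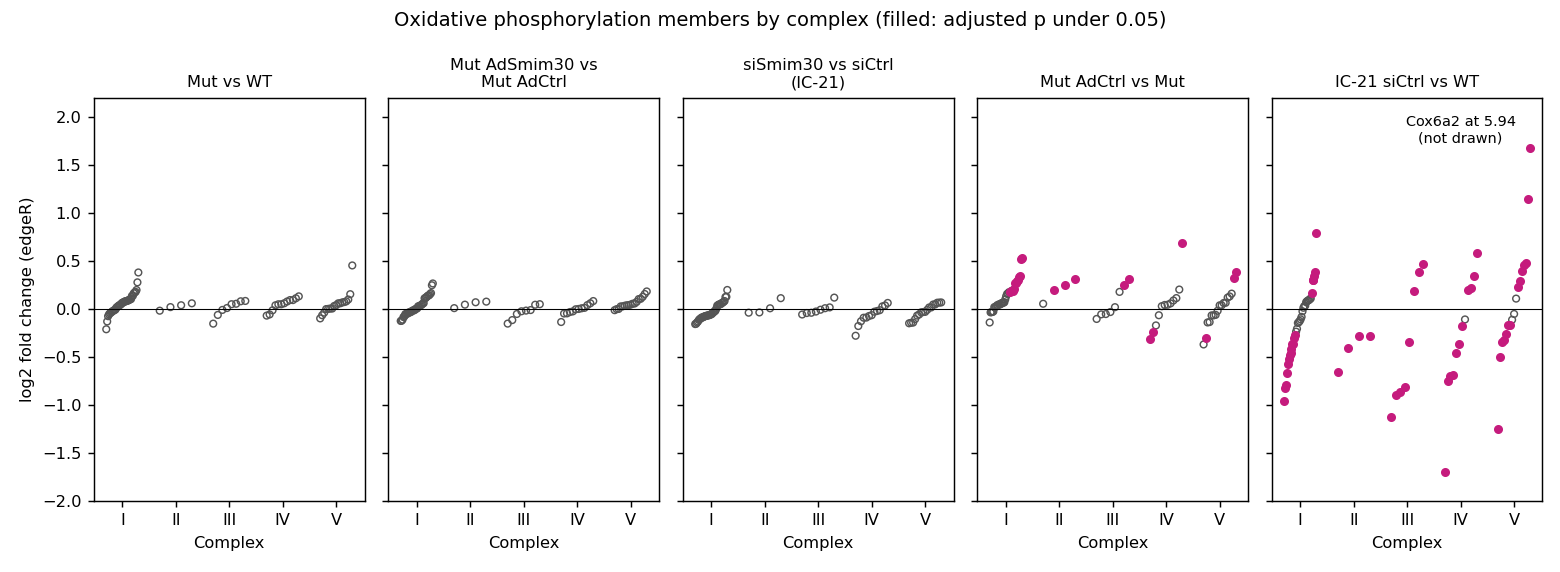
Log2 fold change of each tested member (points, by complex) in the 5 comparisons, with TMM scaling. Filled points have an adjusted p under 0.05, and Cox6a2, at 5.94 in siCtrl against WT, lies outside the drawn range. The panels of Mut against WT, Mut_AdSmim30 against Mut_AdCtrl and siSmim30 against siCtrl hold no filled point. Values on library totals are not drawn, and by these the members in siCtrl against WT were mostly above 0.

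Between the 2 culture schemes of mutant cells, 23 of 77 tested members were called, 20 higher and 3 lower in Mut_AdCtrl than in Mut. Of the 20, 15 belonged to complexes I and II, which held 36 and 4 of the 77 tested members. Mut_AdCtrl shares its libraries with the overexpression comparison and Mut with the mutation comparison, and control virus, longer culture and part of the study coincide, so they cannot be told apart. Of 12798 genes, 6862 were called, which is 53.6% (27.1% higher and 26.5% lower). The members' median log2 fold change was 0.062 and that of all genes -0.00093. The members' share of calls, 29.9%, lay below that of all genes. Their share of calls higher, 26.0%, lay close to the 27.1% of all genes, and that of complex I was 33.3%. DESeq2 called 13 members higher and 2 lower, and limma-voom 18 and 3.

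In complex I, 12 of 36 members were called higher (33.3%) and 0 lower, with a median of 0.12, and 24 were not called. In complex II, 3 of 4 were higher, namely Sdha, the flavoprotein (0.31, adjusted p = 7.25e-06), Sdhb, the iron-sulphur subunit (0.25), and Sdhd (0.19), while Sdhc had 0.05 (adjusted p = 0.512). Sdha had 186, 176 and 186 CPM in Mut_AdCtrl and 136, 138 and 157 CPM in Mut. Complex III had 2 of 8 higher, the core protein Uqcrc2 (0.25) and the hinge protein Uqcrh (0.31). Complex IV had 1 of 12 higher and 2 lower, and complex V 2 of 17 higher and 1 lower. In the catalytic core list, 7 of 15 were higher and 1, the partner subunit Cox5a, was lower.

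Cox7a2l had the largest change among the members. Its protein is known as a factor that joins complexes III and IV into supercomplexes, and C57BL/6 mice are known to carry a shortened form. The gene lies at chr17:83501918-83517330 on the minus strand of GRCm38. It had 132, 130 and 125 CPM in Mut_AdCtrl and 76.0, 72.5 and 85.8 CPM in Mut, with no overlap, and the log2 fold change was 0.69 ± 0.06 (SE; adjusted p = 1.28e-11). In Mut_AdSmim30 it had 126, 124 and 131 CPM, in WT 69.7, 72.4 and 78.0 CPM, in siSmim30 39.2, 44.98 and 40.4 CPM, and in siCtrl 43.0, 46.9 and 43.8 CPM. Its level thus fell into 3 tiers on the TMM scale, with both adenovirus groups above both uninfected primary groups and these above IC-21. The lowest tier rested on the scaling. In siCtrl against WT the log2 fold change was -0.69 with TMM and 0.02 on library totals (adjusted p = 0.766 by edgeR). It was not called in Mut against WT (0.09, adjusted p = 0.544), in Mut_AdSmim30 against Mut_AdCtrl (-0.03, adjusted p = 0.907) or in siSmim30 against siCtrl (-0.09, adjusted p = 0.581).

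The next changes were in complex I and complex V. Ndufs3 (chr2:90894634-90904827, minus strand) had 24.4, 21.6 and 22.1 CPM in Mut_AdCtrl and 15.3, 15.1 and 15.8 CPM in Mut (log2 fold change 0.53 ± 0.11, adjusted p = 0.000173). Ndufa12 (chr10:94198720-94221443, plus strand), an accessory subunit of the peripheral arm, had 22.3, 20.9 and 23.3 CPM in Mut_AdCtrl and 12.6, 15.7 and 16.6 CPM in Mut (0.53 ± 0.12, adjusted p = 0.000383). Neither gene overlapped between the groups. Atp5g2 (chr15:102662864-102672352, minus strand) is among the genes that encode the c subunit of the membrane rotor. It had 33.3, 28.4 and 30.3 CPM in Mut_AdCtrl and 23.5, 23.8 and 22.3 CPM in Mut (0.38 ± 0.10, adjusted p = 0.00118). Ndufs7 (chr10:80249121-80256794, plus strand), which holds an iron-sulphur cluster near the ubiquinone site, had 31.5, 26.2 and 28.4 CPM in Mut_AdCtrl and 21.6, 21.4 and 23.5 CPM in Mut (0.34 ± 0.10, adjusted p = 0.00409). That call was lost without Mut_AdCtrl replicate 1 (adjusted p = 0.0540). Ndufv3 (chr17:31520115-31531331, plus strand), an accessory subunit of the NADH-binding module, had 24.9, 24.9 and 26.0 CPM in Mut_AdCtrl and 17.8, 19.1 and 21.5 CPM in Mut (0.33 ± 0.10, adjusted p = 0.00725).

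The 3 members that were lower in Mut_AdCtrl were named after their values were seen. Cox5a (chr9:57521274-57532426, plus strand), a subunit on the matrix side of complex IV, had 75.7, 77.9 and 75.3 CPM in Mut_AdCtrl and 94.9, 92.7 and 92.1 CPM in Mut (-0.32 ± 0.06, adjusted p = 2.88e-05). Cox6a1, the broadly expressed 6a isoform, had 104, 109 and 103 CPM in Mut_AdCtrl and 125, 115 and 125 CPM in Mut (-0.24 ± 0.05, adjusted p = 0.000429). Neither overlapped between the groups. Atp5k, the e subunit of the membrane domain, had 15.2, 17.2 and 16.3 CPM in Mut_AdCtrl and 20.4, 17.5 and 20.9 CPM in Mut (-0.30 ± 0.12, adjusted p = 0.0304). On library totals 24 members were higher and 2 lower, and Atp5k lost its call.

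**Figure D4:**
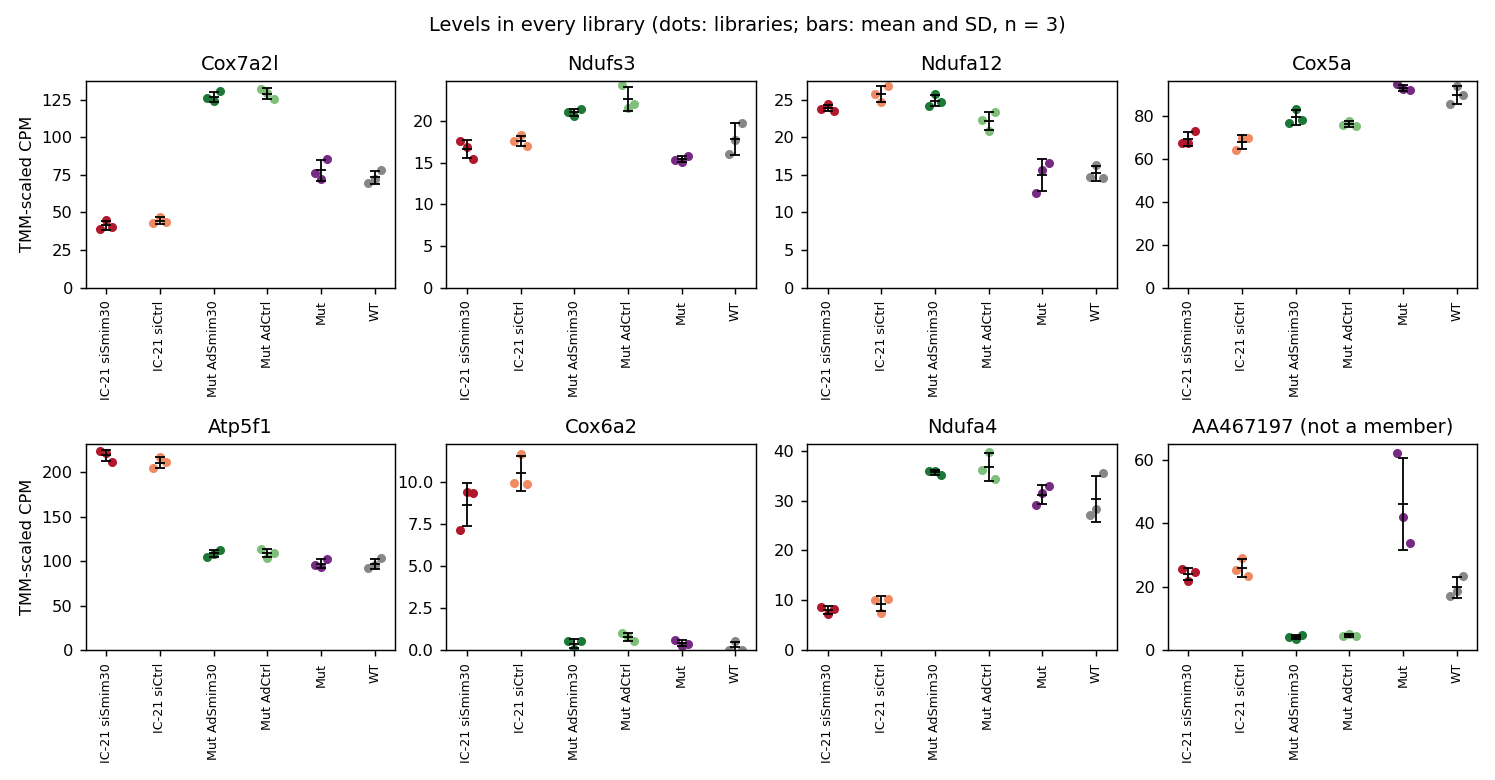
TMM-scaled CPM by library (points) with the group mean (line) for Cox7a2l, Ndufs3, Ndufa12, Cox5a, Atp5f1, Cox6a2, Ndufa4 and the Ndufa4 paralogue AA467197, for the groups from siSmim30 to WT. Cox7a2l separates the adenovirus groups from Mut and WT, Cox6a2 reaches 7.17 CPM or more only in IC-21 libraries and stays at 1.05 CPM or below in the others, and AA467197 is lowest in the adenovirus groups.

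Other genes of the organelle did not all move with the subunits. Of 14 tested biogenesis regulators, 2 were higher in Mut_AdCtrl and 8 lower. Ppargc1a, the coactivator known to drive mitochondrial biogenesis, had 2.21, 2.86 and 2.42 CPM in Mut_AdCtrl and 0.2998, 0.385 and 0.391 CPM, close to the detection floor, in Mut (adjusted p = 6.17e-06). Its relative Ppargc1b was lower (-0.66), as were Tfb1m (-0.63) and Pprc1 (-0.40). Of 16 cycle enzymes, 5 were higher and 6 lower, with Suclg2 (1.89) and Idh3g (0.61) higher and citrate synthase, Cs (-0.56), lower. Mitochondrial ribosomal proteins had 6 of 77 higher and 17 lower, assembly factors of complexes II to V 1 of 32 higher and 5 lower, and complex I assembly factors 1 of 15 higher and 2 lower. Cytosolic ribosomal proteins had 51 of 76 higher and 2 lower, with a median of 0.22. In the same libraries all 6 tested mesothelial and fibroblast markers were lower, with sums of 107 to 132 CPM in Mut_AdCtrl and 245 to 290 CPM in Mut. The dendritic cell markers Ccl22 (-2.65) and Batf3 (-2.62) were lower too. Of 7 macrophage markers 3 were higher and 2 lower, of 3 tested B cell markers 1 and 2, of 6 tested proliferation markers 2 and 1, and of 4 mast cell and granulocyte markers 0 and 2. The part of these in the members' values was not tested.

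Between IC-21 and primary cells, 57 of 78 tested members were called with TMM (73.1%), a share below that of all genes, and for many the direction rested on the scaling. Cell line, transfection and part of the study coincide in siCtrl against WT and cannot be told apart, and the comparison shares libraries with siSmim30 against siCtrl and with Mut against WT. With TMM, 11299 of 14066 genes were called, which is 80.3% (40.1% higher and 40.2% lower), and of the members 21 were higher and 36 lower. Without a composition factor the median log2 fold change of all genes was 0.72 instead of 0.011, 75.2% of all calls were higher instead of 49.96%, and 60 members were called higher and 6 lower. Relative to the median of all genes, the members' median was -0.15 under either scaling, since a factor common to all genes cannot change this difference. In all, 21 members were higher and 6 lower under both, and 18 were lower with TMM and higher on library totals. Leaving out the factor raised the log2 fold changes of this comparison as a whole, so a member higher with TMM could only stay higher. Being higher under both scalings thus adds nothing to the TMM call, while the lower calls could change. All 4 complex II members belonged to the scaling-dependent ones. Sdha, for example, was lower with TMM (-0.28) and higher on totals (0.42), and Sdhb was lower with TMM (-0.66) and not called on totals (0.05, adjusted p = 0.555).

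The 6 members that were lower in siCtrl under both scalings were Ndufa4, Atp5k, Uqcrh, Ndufb5, Uqcrb and Uqcrfs1, so 3 of them belong to complex III. Ndufa4 (chr6:11900292-11907497, minus strand) had 10.1, 7.58 and 10.2 CPM in siCtrl and 27.2, 28.2 and 35.6 CPM in WT. Its log2 fold change was -1.70 with TMM (adjusted p = 4.11e-16) and -0.99 on totals. Atp5k (chr5:108433244-108434448, minus strand) had 8.90, 7.70 and 7.61 CPM in siCtrl and 20.7, 19.1 and 18.8 CPM in WT, with -1.25 by TMM (adjusted p = 7.14e-12) and -0.55 on totals. Neither overlapped between the groups. Uqcrh (chr4:116066965-116075071, minus strand) had 12.3, 13.998 and 16.5 CPM in siCtrl and 30.7, 39.6 and 26.4 CPM in WT, with -1.13 by TMM (adjusted p = 6.78e-07) and -0.43 on totals (adjusted p = 0.00888). Uqcrfs1, the Rieske iron-sulphur protein, had -0.87 by TMM and -0.16 on totals (adjusted p = 0.0365 by edgeR). Uqcrb had -0.89 and -0.19 (adjusted p = 0.0467 on totals), and Ndufb5 had -0.96 and -0.25 (adjusted p = 0.0134 on totals). On totals, Uqcrfs1 and Uqcrb thus lay close to the threshold. In contrast, complex III also held 3 members that were higher under both, Uqcr10 (0.46 by TMM and 1.17 on totals), Uqcrq (0.38 and 1.09) and Uqcrc2 (0.19 and 0.90).

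Among the members that were higher in siCtrl under both scalings, Atp5f1 (chr3:105942698-105960099, minus strand), the b subunit of the peripheral stalk, had 204, 217 and 212 CPM in siCtrl and 92.9, 96.0 and 104 CPM in WT, with 1.15 by TMM (adjusted p = 5.6e-26) and 1.85 on totals. Atp5s (chr12:69724950-69744660, plus strand) had 7.36, 7.46 and 8.92 CPM in siCtrl and 3.47, 1.25 and 2.72 CPM in WT, with 1.68 by TMM (adjusted p = 1.09e-08) and 2.38 on totals. Cox4i1, a nuclear subunit at the regulatory face of complex IV, had 218, 239 and 229 CPM in siCtrl and 153, 157 and 161 CPM in WT, with 0.58 by TMM and 1.29 on totals. The cytochrome gene Cyc1 was likewise higher (0.61 by TMM, adjusted p = 5.5e-12), with 68.2, 75.1 and 69.9 CPM in siCtrl and 45.9, 48.2 and 48.7 CPM in WT. Cytochrome c, Cycs, had 5.93, 7.52 and 9.90 CPM in siCtrl and 15.001, 15.2 and 13.5 CPM in WT, lower by TMM (-0.86, adjusted p = 2.8e-06) and not called on totals (-0.15, adjusted p = 0.344).

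Cox6a2 (chr7:128205435-128206387, minus strand) was the member with the widest range. It had 97, 191 and 121 read pairs in siCtrl and 0, 4 and 0 in WT, which gave 9.92, 11.7 and 9.90 CPM in siCtrl and 0, 0.554 and 0 CPM in WT. The fitted log2 fold change was 5.94 ± 0.39 with TMM and 6.62 on totals. It was 5.27 to 9.88 when a library was left out, with 9.88 without WT replicate 2, when no read pair remained in WT and the value is no bound. The other primary groups held 1 to 11 read pairs per library, and siSmim30 held 83, 115 and 99. Of the other tissue-restricted members, Cox6b2 had 0 counts in all 6 IC-21 libraries and at most 5 in a primary one, and Ndufa4l2 had at most 5 anywhere.

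Around the members, 9 of 16 cycle enzymes were higher in siCtrl and 5 lower with TMM. Suclg2, which encodes the GTP-forming succinyl-CoA ligase subunit, had 0 counts in all 6 IC-21 libraries and 2.35 to 3.22 CPM in WT. Esrra, a nuclear receptor known to act on respiratory genes, was lower (-1.53), with 24.5, 28.2 and 31.4 CPM in siCtrl and 85.2, 82.0 and 81.7 CPM in WT. Assembly factors of complexes II to V split into 10 higher and 10 lower of 33, complex I assembly factors into 6 and 6 of 15, biogenesis regulators into 4 and 5 of 13, and mitochondrial ribosomal proteins into 26 and 31 of 77. All 7 proliferation markers were higher, with sums of 1502 to 1573 CPM in siCtrl and 269 to 285 CPM in WT, and 5 of 7 macrophage markers were lower and 1 higher. All 3 tested B cell markers, all 3 mast cell and granulocyte markers and all 6 mesothelial and fibroblast markers were lower, and of 3 dendritic cell markers 1 was higher and 2 lower. The part of these in the members' values was not tested.

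Shares within an isoform family do not depend on the scaling of libraries, and they were taken per kilobase of counted exon. Cox6a2 made up 11.4 ± 1.502% of Cox6a counts in siSmim30, 13.3 ± 1.42% in siCtrl, 0.385 ± 0.260% in Mut_AdSmim30, 0.787 ± 0.234% in Mut_AdCtrl, 0.348 ± 0.135% in Mut and 0.152 ± 0.264% in WT (SD, n = 3 each). Cox7a2l made up 38.1 ± 2.14% of the Cox7a family in siSmim30, 37.3 ± 1.25% in siCtrl, 61.9 ± 1.52% in Mut_AdSmim30, 63.4 ± 1.72% in Mut_AdCtrl, 52.6 ± 1.88% in Mut and 52.3 ± 1.41% in WT. No library of the adenovirus groups overlapped with Mut or WT, and the Cox7a2l difference between the groups was therefore present without any scaling between libraries. Among the c-subunit genes, Atp5g3 held 62.6 to 68.8% as group means, Atp5g2 21.9 to 28.9% and Atp5g1 8.005 to 9.99%. The Atp5g2 share was 28.4, 25.1 and 27.5% in Mut_AdCtrl and 22.0, 23.4 and 20.3% in Mut, with no overlap. The shares are descriptions and were not tested.

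Ndufa4 has a paralogue outside the rule, AA467197, the mouse gene of a small protein known to be induced in inflamed macrophages and to take the place of Ndufa4 in complex IV. AA467197 had 25.5, 21.9 and 24.7 CPM in siSmim30, 25.4, 29.0 and 23.5 CPM in siCtrl, 4.07, 3.61 and 4.85 CPM in Mut_AdSmim30, 4.51, 5.14 and 4.39 CPM in Mut_AdCtrl, 62.1, 42.0 and 33.8 CPM in Mut and 17.2, 18.7 and 23.5 CPM in WT. Every Mut library lay above every WT library, and the adenovirus groups lay below all others. Mut against WT gave a log2 fold change of 1.18 ± 0.30 that was not called (SE; adjusted p = 0.128). It was called under 6 of the alternatives, among them DESeq2 (adjusted p = 0.0013), limma-voom (adjusted p = 0.00116) and leaving out Mut replicate 1 (0.92, adjusted p = 8.71e-06), the library with the highest value. Mut_AdCtrl against Mut gave -3.30 (adjusted p = 0.000651). Ndufa4 itself gave 0.04 in Mut against WT (adjusted p = 0.902), with 29.1, 31.5 and 32.9 CPM in Mut and 27.2, 28.2 and 35.6 CPM in WT. As a share of the pair per kilobase, AA467197 made up 77.4 ± 0.371% in siSmim30, 76.1 ± 4.77% in siCtrl, 11.9 ± 1.69% in Mut_AdSmim30, 12.7 ± 0.189% in Mut_AdCtrl, 61.9 ± 8.54% in Mut and 42.8 ± 0.577% in WT.

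**Figure D5:**
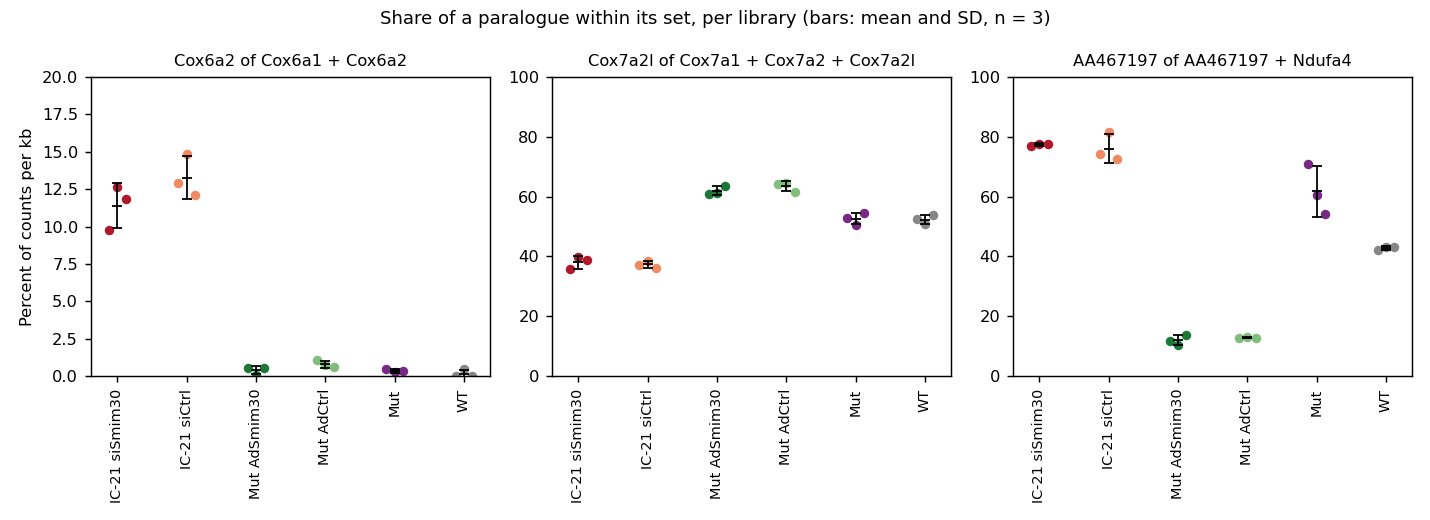
Percent of counts per kilobase taken by Cox6a2 within Cox6a, by Cox7a2l within Cox7a and by AA467197 within the pair with Ndufa4, by library (points) with the group mean (line), for the groups from siSmim30 to WT. Cox6a2 takes over 9% only in IC-21 libraries, the Cox7a2l share is highest in the adenovirus groups, and the AA467197 share is lowest there.

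Promoters of 70 of the 86 members were held in the RefSeq promoter table of GRCm38.p6, among 27025 genes, as windows of 300 bases around the transcription start. These are shown because respiratory genes are known for binding sites of NRF1, of ETS-family factors such as GABP, and of YY1. The letters GCGCATGC of an NRF1 core occurred, on either strand, in 10 member promoters (14.286%) and in 3.049% of all genes. They were Ndufa11, Ndufa6, Ndufa8, Sdhb, Uqcr11, Uqcrc1, Cox6a1, Atp5g2, Atp5k and Atp5l. The ETS core CCGGAAG occurred in 16 (22.857%) and in 9.928% of all genes, and the YY1 core AAGATGGC in 10 (14.286%) and in 3.19%. The letters that end the ETS core open the YY1 core, so these can overlap, and Atp5j alone among the members held both. Of the 10 genes with the NRF1 core, 4 were called higher in Mut_AdCtrl than in Mut (Ndufa6, Ndufa8, Sdhb and Atp5g2) and 2 lower (Cox6a1 and Atp5k). Called there were 53.6% of all genes and 29.9% of the tested members. A difference of these 10 from the other members was not tested. The motif shares of all 27025 genes also take in genes too low to be tested here, and no share among expressed genes was taken. A match is a description and not a bound site.

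Bases upstream of the transcription start that overlap no counted exon are printed for 4 members whose levels differed between groups. Cox7a2l (chr17:83514334-83514583, minus strand) had the largest called rise in Mut_AdCtrl, and its RefSeq start lies inside the span that the deposited annotation gives the gene, so these bases precede an internal start. Cox5a (chr9:57520982-57521231, plus strand) had the largest fall among the members called there. Ndufa4 (chr6:11907498-11907700, minus strand) had the largest called fall in siCtrl with TMM. Uqcr11 (chr10:80406831-80407071, minus strand), a small complex III subunit, carries an ETS core, shown in capitals, and its NRF1 core lies outside the printed bases. The others hold none of the 3 cores in these bases. Uqcr11 had 14.9, 14.2 and 13.8 CPM in siCtrl and 23.6, 28.7 and 25.01 CPM in WT, lower by TMM (-0.82) and not called on library totals (-0.11, adjusted p = 0.338).
Cox7a2l: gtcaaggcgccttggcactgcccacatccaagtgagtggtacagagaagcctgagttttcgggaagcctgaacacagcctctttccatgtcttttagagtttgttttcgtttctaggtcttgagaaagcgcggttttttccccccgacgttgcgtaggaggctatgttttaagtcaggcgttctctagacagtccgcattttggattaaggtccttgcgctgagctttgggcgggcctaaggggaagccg
Cox5a: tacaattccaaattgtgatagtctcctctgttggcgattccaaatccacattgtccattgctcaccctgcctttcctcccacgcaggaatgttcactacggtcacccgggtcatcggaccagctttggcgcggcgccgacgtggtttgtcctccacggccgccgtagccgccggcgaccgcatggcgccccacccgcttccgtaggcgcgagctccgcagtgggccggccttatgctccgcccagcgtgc
Ndufa4: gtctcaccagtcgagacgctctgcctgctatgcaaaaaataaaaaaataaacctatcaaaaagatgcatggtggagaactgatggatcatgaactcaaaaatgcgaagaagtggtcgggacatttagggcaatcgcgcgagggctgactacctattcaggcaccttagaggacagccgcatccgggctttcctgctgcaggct
Uqcr11: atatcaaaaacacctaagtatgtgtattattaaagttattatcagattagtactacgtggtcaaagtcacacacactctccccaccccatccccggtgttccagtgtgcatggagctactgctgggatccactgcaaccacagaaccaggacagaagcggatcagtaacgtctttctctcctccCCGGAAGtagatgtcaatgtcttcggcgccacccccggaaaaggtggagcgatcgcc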

How the data were processed

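Gene expression was measured by strand-specific RNA-seq in 18 libraries, and groups were taken from the sample titles. Per the file headers, the authors ran featureCounts 2.0.3 on reversely stranded pairs with GENCODE M25 (GRCm38) and deposited its unscaled gene counts. fastp, FastQC and HISAT2 are named in the submitters' processing notes. No flag for counting reads of several sites stands in the headers, so genes with near-identical copies may lose reads. A number inside each header differed from that in the file's name, and the sample recorded for the file was used. Symbols came from GENCODE M21, which matched 55141 of 55401 identifiers and left 260 without a symbol. The prefix rule also matched 13 genes that are not protein coding, which were left out. Smim30 was taken to be 2610001J05Rik from general knowledge.

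Every pairwise comparison had a separate fit of its 6 libraries by the quasi-likelihood test of edgeR 4.0.16 (R 4.3.3), with robust dispersions, TMM factors and filterByExpr. P-values were adjusted over all genes tested by Benjamini-Hochberg and called under 0.05. The difference of differences used 12 libraries. Intervals are at 95%. CPM in the text are scaled by TMM over all 18 libraries and so differ slightly from the fits. Alternatives were DESeq2 1.42.0, limma-voom (limma 3.58.1), other scalings and filters, a fit of all libraries, a length offset (lowess span 0.3), a replicate block and leaving out each library. The fits were tested on simulated data. The members and gene lists were chosen with earlier results of these data known, and the printed promoters and the motif letters were chosen after these values were seen. By rule, values in every library are given for members called in a comparison of the study, for the 6 largest called changes in Mut_AdCtrl against Mut and in siCtrl against WT, and for the highest and lowest level per length in each complex (here by range). Tissue-restricted isoforms are given as counts, and of other lists up to 4 called genes each, with AA467197, Cyc1, Cycs and Smim30 always. Per-kilobase levels divide by the counted length in the headers. Motifs were sought on both strands. Proteins were not analysed here.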

Additional observations from a re-analysis of the deposited data

How the results depend on the processing

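The 0 calls among members in Mut against WT and in siSmim30 against siCtrl held under every alternative run, although DESeq2 gave an adjusted p to only 76 and 62 of the members there. In Mut_AdSmim30 against Mut_AdCtrl 1 member was called higher with the length offset, and 0 to 1 when a library was left out. Counts of all genes called moved more. Mut against WT had 1198 in the fit of all 18 libraries and 469 to 957 with a library left out (469 without Mut replicate 2). Mut_AdSmim30 against Mut_AdCtrl had 68 by DESeq2, 87 in the fit of all libraries and 66 to 453 with a library left out (66 without Mut_AdSmim30 replicate 3, 453 without Mut_AdCtrl replicate 3). siSmim30 against siCtrl had 291, 263 and 309 to 422 (309 without siCtrl replicate 2), and the interaction had 267 to 571 (571 without Mut replicate 3). In Mut_AdCtrl against Mut, DESeq2 called 13 members higher, and leaving out a library gave 15 to 23 higher and 2 to 4 lower. In siCtrl against WT, leaving out a library gave 17 to 20 higher and 34 to 37 lower, with a median log2 fold change of -0.19 to -0.12. Without a composition factor 60 were higher and 6 lower, with a median of 0.56. That median was -0.18 in the fit of all libraries and -0.26 with the length offset. Without a composition factor 54.3% of all calls were higher in siSmim30 against siCtrl instead of 68.6%, and 61.7% instead of 49.7% in the interaction. The cause of these shifts was not tested, except that leaving out a library removes data. Same-number correlations of deviations were -0.178 to 0.0659, so the replicate numbers gave no clear pairing, though low correlations cannot exclude one. In Mut_AdSmim30 against Mut_AdCtrl, 4 libraries were closest to their own number. The same-number correlations there were 0.0236, 0.0517 and -0.000264, against -0.0380 to 0.0124 for other numbers. With a replicate block all genes called were 782 in Mut against WT, 253 in Mut_AdSmim30 against Mut_AdCtrl, 546 in siSmim30 against siCtrl, 6688 in Mut_AdCtrl against Mut, 11191 in siCtrl against WT and 410 in the interaction, and members called were 0, 0, 0, 19 higher and 3 lower, 21 higher and 36 lower, and 0. Among single genes named, 562 values kept direction and side of the threshold, 36 moved, 27 lost a call and 8 gained one. Cycs in Mut_AdCtrl against Mut, called at an adjusted p of 0.0422, lost its call under 10 of 15 alternatives, with adjusted p from 0.0212 to 0.168. Shallow coverage limits Cox6a2 in primary cells, Atp5s and the untested isoforms, and all counts lack molecular identifiers, so floors cover counting error only.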
